A study of Macaca mulatta with 32 samples.

Results

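Circular RNAs of the hippocampus were compared with those of the neocortex in healthy, socially housed rhesus macaques. The 8 hippocampal libraries were those named for CA1 (Cornu Ammonis 1) and DG (the dentate gyrus), and the 20 neocortical libraries were those named for the prefrontal (PFC), posterior cingulate (PCC), temporal (TC), parietal (PC) and occipital (OC) cortex, which makes 28 of the 32 libraries of the series. The 4 cerebellar libraries were not used. Each region had 4 libraries, from females of 10 years (10F), males of 10 years (10M), females of 20 years (20F) and males of 20 years (20M), and each library was a pool of RNA from 2 animals of the same age and sex. The labels name no allele and no treatment in any group. The same 8 animals gave all the regions, so 28 libraries rested on 4 pools, and p-values over libraries measure the spread between pieces of tissue as much as between animals.

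A circular RNA (circRNA) forms when the spliceosome joins the end of an exon back to an upstream exon, which leaves a closed loop without ends that RNase R, an enzyme that digests linear RNA, cannot easily attack. Neurons hold many circRNAs, often from genes of the synapse, and a circRNA need not follow the mRNA of its host gene. The hippocampus is built of pyramidal cells in CA1 and small, densely packed granule cells in the dentate gyrus, whereas the neocortex has layers of projection neurons, and both serve memory.

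Levels are given in TPM, the unit of the deposited table, in which a library's back-splice reads (reads across the junction that closes the loop) are multiplied by a constant of that library and not divided by length. The lowest value listed stands for 2 reads, and a circRNA with fewer is listed at 0. The hippocampal libraries held 37329 to 811958 back-splice reads (median 66765) and the neocortical libraries 58037 to 894932 (median 219770). Depth therefore differed between the groups, and the numbers of circRNAs and host genes that passed the test of hippocampus against neocortex are also given after all 28 libraries were thinned to 37329 reads. CA1_20M and DG_20M were the deepest hippocampal libraries, and they belong, with PFC_20F, PCC_20F and PC_10M, to 5 libraries that the study's sample list gives a higher share of clean reads than the rest.

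Of 6039 circRNAs above 0 in at least 8 of the 28 libraries, 12 were higher (0.199%) and 36 were lower (0.596%) in hippocampus than in neocortex by limma on log2(TPM + 2.215) with a Benjamini-Hochberg adjusted p under 0.05. The 12 included circRNAs of COL11A1, ZFPM2, PPFIA2 and PRSS12, and the 36 included circRNAs of C6ORF142, PRIM2, KIAA0802 and CUX2. All 12 of the higher circRNAs and 32 of the 36 lower ones kept that direction within all 4 pools, beside 1145 (19%) of all 6039. The pool differences came from the same values as the test, so this agreement is no separate evidence. Each of the 12 came from a host gene of its own, and C6ORF142 was the only one of the 37 host genes of these circRNAs with 2 among the 48. Only 1 circRNA, that of ZFPM2, had all 8 hippocampal libraries above all 20 neocortical ones (0.0166%), and none had them all below. As the tissue was sampled in bulk, fewer cells of a type and less circRNA per cell cannot be told apart.

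**Figure D1:**
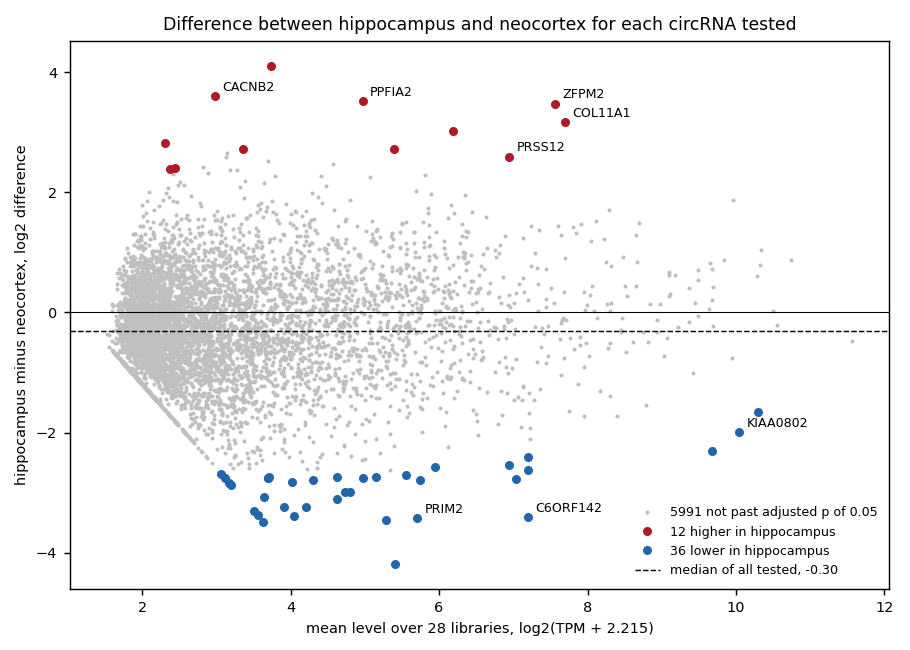
Each point is 1 of 6039 circRNAs, with its mean level over the 28 libraries on the x axis as log2(TPM + 2.215) and its log2 difference, hippocampus minus neocortex, on the y axis. The 12 circRNAs that were higher (red) and the 36 that were lower (blue) are coloured, and the dashed line marks the median of all points, -0.30.

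At equal depth more circRNAs were higher and fewer were lower. The fit at equal depth also added the value of 2 reads before log2, not 2.215 TPM. Without thinning, adding 8.86 TPM gave 20 higher and 32 lower circRNAs and a median log2 difference of -0.13. The parts of depth and of the added value in the shift, and in log2 differences at equal depth, were not tested separately. After thinning to equal reads, the median over 10 draws was 17.5 higher circRNAs (13 to 26) and 16.5 lower ones (9 to 26). At an unadjusted p under 0.05, 179 were higher (2.96%) and 625 lower (10.3%) as deposited, against 245 and 250 after thinning, and the median log2 difference of all circRNAs tested moved from -0.30 to -0.06. Of the 48 circRNAs, all kept their direction at equal depth, which used a part of the same reads, beside 5404 of all 6039. Of the 12 higher ones 8 still passed, and of the 36 lower ones 11. Without CA1_20M and DG_20M, 11 were higher and 25 lower, and without the 5 libraries of a higher share of clean reads 6 and 13. When each pool gave 1 difference, so that the test rested on 4 values, 6 were higher and 0 were lower by limma (677 lower at an unadjusted p under 0.05). With the 20F pool left out, 10 were higher and 11 lower. Without the 10F pool the counts were 7 and 17, and without the 20M pool 7 and 16. Leaving out single libraries gave 8 to 15 higher and 21 to 46 lower circRNAs, and the lower count was 21 to 23 without CA1_20F or any 1 of the 4 DG libraries. Without the whole of DG, which leaves 4 hippocampal libraries, 2 were higher and 3 lower. Without the whole of CA1, which also leaves 4, 12 were higher and 31 lower. The counts thus depended more on the DG libraries than on those of CA1.

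**Figure D2:**
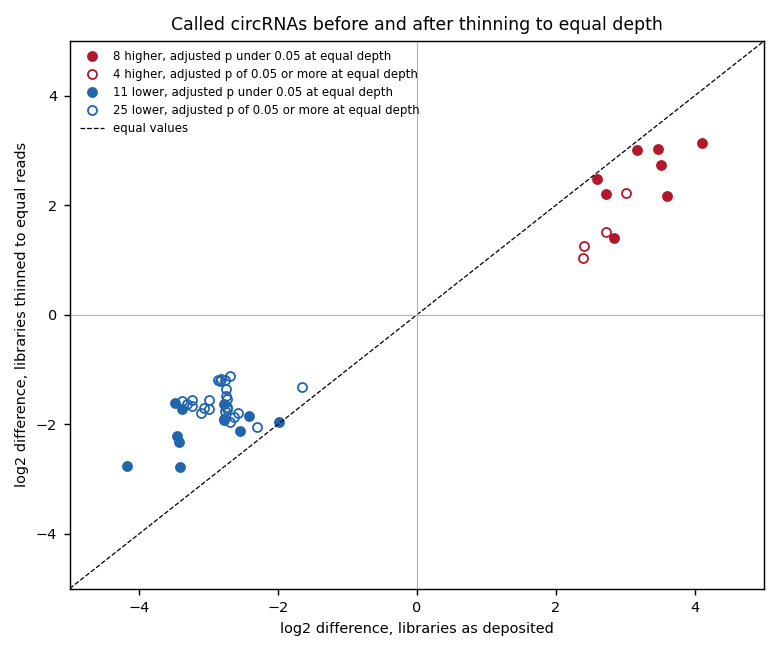
Each point is 1 of the 48 circRNAs that passed the test, with its log2 difference (hippocampus minus neocortex) in the libraries as deposited on the x axis and in libraries thinned to 37329 reads on the y axis. Filled points, 8 of the higher (red) and 11 of the lower (blue) circRNAs, also had an adjusted p under 0.05 at equal depth. None of the 48 crossed 0, beside 5404 of all 6039 circRNAs that kept their direction.

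The circRNAs higher in hippocampus are given by what their host genes are known to do, from synaptic proteins to collagens and enzymes. A circRNA from an intron of ENSMMUG00000018538, which the gene names supplied with the data call SHISA6, an auxiliary subunit of AMPA receptors, lay at chromosome 16, 11124533 to 11148660. It had 0, 197 and 273 TPM (lowest, median and highest) in hippocampus and 0, 4.37 and 35.4 TPM in neocortex. The library at 0 was CA1_20M, and the other 7 hippocampal libraries lay above all 20 neocortical ones. The means were 166 ± 93.7 TPM (SD, n = 8) and 7.24 ± 9.76 TPM (SD, n = 20), a log2 difference of 4.11 ± 0.75 (SE) with a limma adjusted p of 0.000294.

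PPFIA2 encodes liprin-alpha-2, a scaffold of the presynaptic active zone. Its circRNA at chromosome 11, 78405303 to 78425565, had 89.9, 146 and 692 TPM in hippocampus and 0, 20.5 and 92.8 TPM in neocortex. All but 1 of the hippocampal libraries exceeded every neocortical library, and the mean was 138 TPM in CA1 and 310 TPM in DG. The log2 difference was 3.51 ± 0.73 (limma adjusted p = 0.00172), and it was 2.73 at equal depth (adjusted p = 0.000133). The other 2 circRNAs of PPFIA2 that were tested did not pass, with log2 differences of 0.72 (adjusted p = 0.722) and -1.08 (adjusted p = 0.362). The study had designed primers for the higher one, and they are printed here because the junction of that circRNA is the one that stood apart (5′ to 3′, all letters in lower case).
PPFIA2 forward: gcgactgagggtttctttag
PPFIA2 reverse: gagttcagagatttcttcttcc

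PRSS12 encodes neurotrypsin, a serine protease of synapses. The PRSS12 circRNA at chromosome 5, 111177622 to 111184194, was found in all 28 libraries, at 148, 480 and 1107 TPM in hippocampus and 18.4, 75.1 and 222 TPM in neocortex. DG_20F was the only hippocampal library within the neocortical range. The log2 difference was 2.59 ± 0.61 (limma adjusted p = 0.0115). TANC1, a scaffold of the postsynaptic density, gave a circRNA at 0, 18.5 and 63.6 TPM in hippocampus and 0, 0 and 11.3 TPM in neocortex, with 5 of 8 hippocampal libraries above the neocortical range. Its log2 difference of 2.38 ± 0.65 (limma adjusted p = 0.0392) became 1.04 at equal depth (adjusted p = 0.102).

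CACNB2, a cytoplasmic beta subunit of voltage-gated calcium channels, had an intronic circRNA at chromosome 9, 18444043 to 18480217, with 0, 64.0 and 214 TPM in hippocampus and 0, 0 and 29.5 TPM in neocortex. It was listed at 0 in DG_20F, and the remaining 7 hippocampal libraries were above all neocortical ones. The log2 difference was 3.60 ± 0.72 (limma adjusted p = 0.0011). The 4 exonic circRNAs of CACNB2 that were tested had log2 differences from -1.11 to 0.24, and none passed (adjusted p of 0.532 to 0.873). Higher levels were thus seen for the intronic circle and not for the exonic circles of the same gene, though the difference between them was not tested.

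COL11A1, a chain of the fibrillar collagen XI of the extracellular matrix, gave a circRNA at chromosome 1, 105970153 to 105980172. It had 561, 918 and 3510 TPM in hippocampus and 0, 151 and 575 TPM in neocortex, and 6 of 8 hippocampal libraries exceeded all neocortical ones. The means were 1212 ± 991 TPM (SD, n = 8) and 163 ± 132 TPM (SD, n = 20), and the log2 difference of 3.17 ± 0.59 (limma adjusted p = 0.00039) was 3.01 at equal depth. Within the pools the log2 difference was 3.02 in 10F, 2.39 in 10M, 3.53 in 20F and 3.73 in 20M. In both hippocampal regions the 20M library stood above the others, at 1624 TPM in CA1 and 3510 TPM in DG. The circRNA of COL25A1, a membrane-bound collagen of neurons, was at 0 in all but 2 of the 20 neocortical libraries and above 0 in 6 of 8 hippocampal ones, where it reached 83.5 TPM (log2 difference 2.83 ± 0.64, limma adjusted p = 0.00617).

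ZFPM2 encodes a zinc finger cofactor of GATA transcription factors. The ZFPM2 circRNA at chromosome 8, 107920741 to 107945066, had 569, 912 and 3335 TPM in hippocampus and 0, 223 and 499.5 TPM in neocortex. The groups did not overlap. DG had a mean of 1752 TPM and CA1 of 766 TPM, while the 5 neocortical regions had means from 63.4 TPM in TC to 254 TPM in PCC. The log2 difference was 3.47 ± 0.66 (limma adjusted p = 0.000413) and 3.02 at equal depth (adjusted p = 0.000707). All 3 other ZFPM2 circRNAs tested had positive differences, from 1.41 to 2.65, which did not pass (adjusted p of 0.0546 to 0.352).

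The remaining 4 were the circRNAs of DPYD, PGD, MAD1L1 and a gene of uncertain name. DPYD, the first enzyme of pyrimidine breakdown, had 79.6, 172 and 262 TPM in hippocampus and 0, 27.8 and 108 TPM in neocortex (log2 difference 2.72 ± 0.71, limma adjusted p = 0.0302), with 6 of 8 hippocampal libraries above the neocortical range. The circRNA of PGD, an enzyme of the pentose phosphate pathway, was above 0 in 8 of 8 hippocampal and 10 of 20 neocortical libraries. That of MAD1L1, a protein of the spindle checkpoint, was above 0 in 6 of 8 and 5 of 20, with the highest adjusted p of the 12 (0.0495 by limma). At equal depth neither passed (adjusted p of 0.0607 for PGD and 0.0541 for MAD1L1). With each of the 28 libraries left out in turn, MAD1L1 passed in 6 of 28 fits, PGD in 14, TANC1 in 12 and DPYD in 22. One circRNA at chromosome 5, 75994556 to 76000679, is assigned to FIP1L1, a polyadenylation factor, in the deposited table, while the gene names supplied with the data give PDGFRA, a receptor of oligodendrocyte precursors, for the same gene ID, so its host is uncertain. It had 120, 345 and 656 TPM in hippocampus and 0, 68.0 and 606 TPM in neocortex. These groups overlapped widely, only 1 hippocampal library exceeded all neocortical ones, and the log2 difference of 3.01 ± 0.73 (limma adjusted p = 0.0147) was 2.22 at equal depth (adjusted p = 0.0648).

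**Figure D3:**
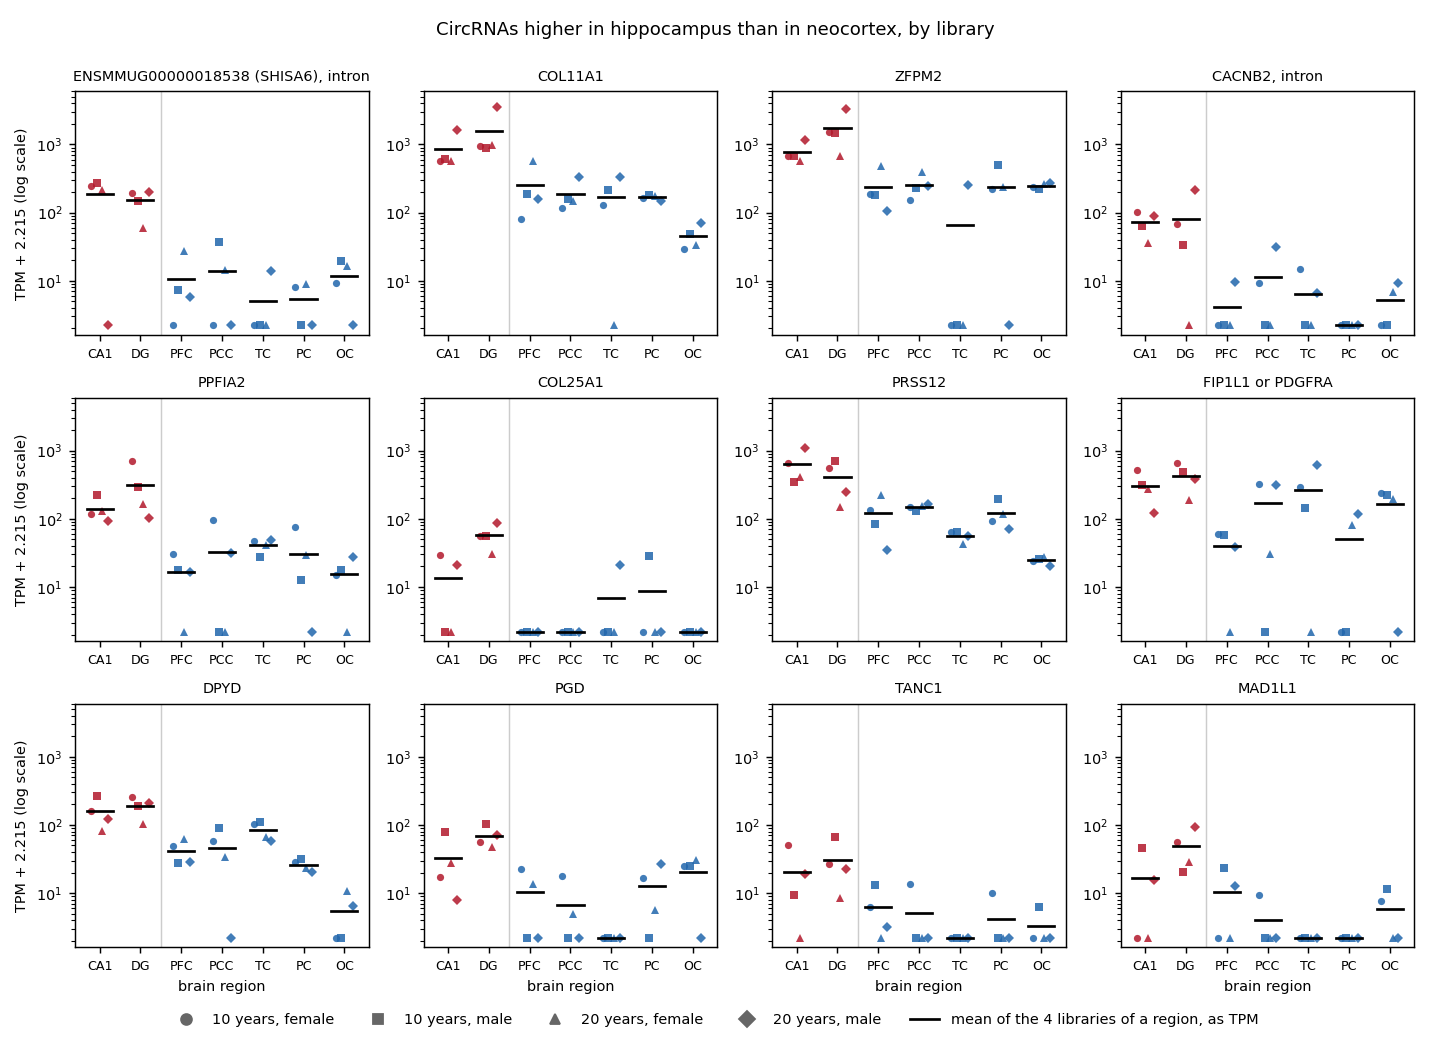
The panels show the 12 circRNAs higher in hippocampus, with the 4 libraries of each region as points (the shape gives age and sex), the region on the x axis, TPM + 2.215 on a log y axis and the mean TPM of a region as a bar. ZFPM2 is the one panel in which all 8 hippocampal points (red) lie above all 20 neocortical points (blue), and CA1_20M is at 0 for ENSMMUG00000018538.

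Of the circRNAs lower in hippocampus, 10 of the 36 were assigned to no gene (intergenic, 27.8%), beside 15.7% of the circRNAs tested. Of the 12 higher ones, 10 were exonic, 2 intronic and none intergenic. In 7 of the 36 the circRNA was listed at 0 in all 8 hippocampal libraries, beside 353 of all 6039 tested, and no fold can be given for these 7. None of the 6039 was at 0 in all 20 neocortical libraries, for which the filter of 8 libraries left little room. An intergenic circRNA at chromosome 12, 62960223 to 63024649, had the smallest p of the 36. It had 0, 0 and 32.3 TPM in hippocampus and 0, 142 and 372 TPM in neocortex, and 17 of 20 neocortical libraries exceeded all hippocampal ones. All 4 DG libraries were at 0, whereas 3 of 4 CA1 libraries were not. The log2 difference was -4.18 ± 0.73 (limma adjusted p = 0.000187) and -2.76 at equal depth (adjusted p = 0.00068).

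C6ORF142, now named MLIP, encodes a protein that binds lamin A. The C6ORF142 circRNA at chromosome 4, 53822249 to 53863447, had 0, 43.7 and 180 TPM in hippocampus and 0, 421 and 1007 TPM in neocortex. Of the neocortical libraries, 15 of 20 exceeded every hippocampal one, and the OC mean of 114 TPM was the lowest among the neocortical regions (288 to 691 TPM in the others). The log2 difference was -3.41 ± 0.65 (limma adjusted p = 0.000448). A second circRNA with the same start, ending at 53875750, had means of 595 ± 626 TPM in hippocampus (SD, n = 8) and 2095 ± 1315 TPM in neocortex (SD, n = 20), and also passed (log2 difference -2.30 ± 0.55, limma adjusted p = 0.0133). It did not pass at equal depth (adjusted p = 0.0884), and in the 10M pool its difference was positive, at 1.11. Another with that start, ending at 53842943, did not pass, at means of 83.6 TPM in hippocampus and 141 TPM in neocortex, with 8 of 8 and 15 of 20 libraries above 0 and a log2 difference of 0.54 ± 0.75 (adjusted p = 0.795).

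KIAA0802, now named MTCL1, encodes a protein that cross-links microtubules. The KIAA0802 circRNA, at chromosome 18, 5660775 to 5662824, was found in all 28 libraries, at 127, 401 and 1259 TPM in hippocampus and 766, 1479 and 3438 TPM in neocortex. CA1_10M was the only hippocampal library within the neocortical range. Its log2 difference of -1.99 ± 0.41 (limma adjusted p = 0.00172) was -1.96 at equal depth. PRIM2, the large subunit of DNA primase, gave a circRNA at 0, 10.4 and 45.4 TPM in hippocampus and 30.9, 119 and 216 TPM in neocortex. Here 6 of 8 hippocampal libraries were below all neocortical ones, and the log2 difference was -3.42 ± 0.68 (limma adjusted p = 0.00106).

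The circRNA of HECW1, a ubiquitin ligase, was listed at 0 in all 8 hippocampal libraries and had 0, 34.1 and 128 TPM in neocortex, above 0 in 15 of 20 libraries (966 reads in all). Intergenic circRNAs at chromosome 1, 78058680 to 78144015, and chromosome 11, 128789108 to 128794061, were also at 0 in all hippocampal libraries and above 0 in 18 and 16 of 20 neocortical ones. At equal depth both intergenic circRNAs still passed (adjusted p of 0.0202 and 0.0237), and that of HECW1 did not (adjusted p = 0.0747). For FGF12, whose protein binds voltage-gated sodium channels, 7 of 8 hippocampal libraries were at 0, and the remaining one, CA1_10M, had the highest value of all 28 at 135 TPM against 0, 34.3 and 109 TPM in neocortex. The circRNAs of WFDC1, with a protease inhibitor domain, and of an intron of ARHGAP6 were likewise above 0 in only 1 hippocampal library each, at 29.3 and 24.6 TPM. That of BMPER, a secreted regulator of bone morphogenetic proteins, was above 0 in 3 of 8 hippocampal and 18 of 20 neocortical libraries. None of the circRNAs of FGF12, WFDC1, ARHGAP6 and BMPER passed at equal depth (adjusted p of 0.0565 to 0.094). An intergenic circRNA on chromosome X, starting at 103245749, was at 0 in all of DG and in CA1_20F, while CA1_10M had 175 TPM, and only 2 of 20 neocortical libraries exceeded that value.

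**Figure D4:**
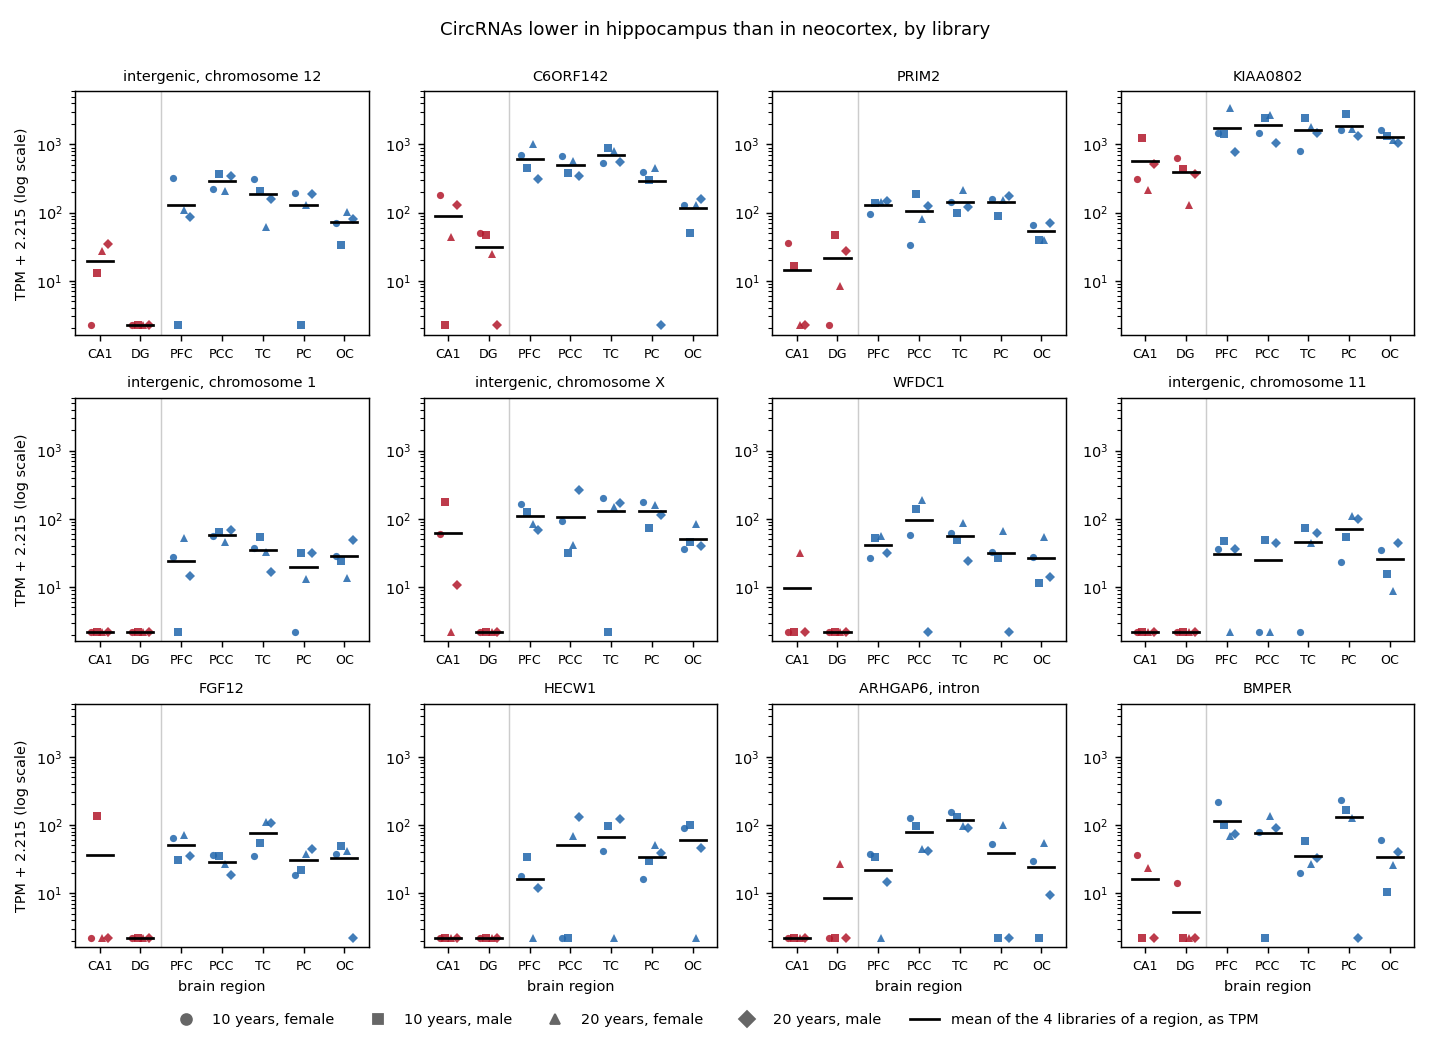
The panels show 12 of the circRNAs lower in hippocampus, with the 4 libraries of each region as points (the shape gives age and sex), the region on the x axis, TPM + 2.215 on a log y axis and the mean TPM of a region as a bar. Points at the bottom are libraries listed at 0, which include all 8 hippocampal libraries (red) in the panels of HECW1 and of the intergenic circRNAs of chromosomes 1 and 11.

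Among the other 24 lower circRNAs were those of NTRK2, the receptor of brain-derived neurotrophic factor, of RIMS2, an organizer of the active zone, of PTPRT, a receptor tyrosine phosphatase, and of CUX2, a transcription factor of upper-layer neurons. The NTRK2 circRNA had means of 144 ± 127 TPM in hippocampus (SD, n = 8) and 326 ± 149 TPM in neocortex (SD, n = 20), a log2 difference of -2.63 ± 0.67 (limma adjusted p = 0.0226). It was above 0 in 5 of 8 hippocampal libraries, at 158 to 295 TPM, within the range of the 19 of 20 neocortical ones above 0 (75.4 to 600 TPM). At equal depth none of the circRNAs of NTRK2, RIMS2, PTPRT and CUX2 passed (adjusted p of 0.106, 0.22, 0.0777 and 0.0509). That of RIMS2 was found in 20 of 20 neocortical and 2 of 8 hippocampal libraries. The 24 had log2 differences down to -3.07, for ATRNL1, and at equal depth 4 of them passed, those of RANBP17, CCT3, ENSMMUG00000000884 and an intergenic one on chromosome 6 (adjusted p of 0.0166 to 0.0475).

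Summing all circRNAs of a host gene asked whether their total differed, which 1 abundant circle can carry. Of 3554 host genes, 14 were higher (0.394%) and 49 were lower (1.38%) in hippocampus by the same test, and at equal depth the median over draws was 24 higher and 32.5 lower. HECW1 had the smallest p. Its 8 circRNAs tested were all lower. Most of them were at 0 in all hippocampal libraries, so they passed the filter through neocortex alone and could only be lower. All 36 HECW1 circRNAs listed, tested or not, summed to 0, 14.4 and 101 TPM in hippocampus against 86.4, 179.5 and 294 TPM in neocortex (log2 difference -3.69 ± 0.49, limma adjusted p = 2.75e-07, and -2.89 at equal depth). FMN1, a formin that assembles actin, had none of its 5 circRNAs pass alone, and all 5 were lower. The one from 11084574 to 11138543 was likewise at 0 in all hippocampal libraries. All FMN1 circRNAs together, tested or not, averaged 22.5 ± 32.4 TPM in hippocampus (SD, n = 8) and 125 ± 80.7 TPM in neocortex (SD, n = 20). Their sum passed (limma adjusted p = 8.34e-05). The sums of C6ORF142, PTPRT and PRIM2 were lower too, by -2.11, -3.12 and -2.87 on the log2 scale.

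In the other direction, the summed circRNAs of ERC1, a protein of the active zone also called ELKS, had 211, 424 and 642 TPM in hippocampus and 58.9, 158 and 255 TPM in neocortex. Of its 8 circRNAs tested, 7 had positive differences and none passed alone, while the sum had a log2 difference of 1.50 ± 0.37 (limma adjusted p = 0.0134), and 1.51 at equal depth. TIAM1, an exchange factor of the GTPase Rac, showed the same arrangement, with 4 of 4 circRNAs positive, none past the test alone, and a sum of 213 ± 151 TPM in hippocampus (SD, n = 8) against 54.7 ± 41.8 TPM in neocortex (SD, n = 20, limma adjusted p = 0.0182). ZFPM2, DPYD and PPFIA2 passed as sums as well as through 1 circRNA each. That circRNA had a hippocampal mean of 1259 TPM in a sum of 1395 TPM for ZFPM2, 172 in 323 TPM for DPYD and 224 in 289 TPM for PPFIA2. Sum and circRNA thus share reads and are not separate evidence. All 10 of these host genes also passed at equal depth.

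Of the 6 circRNAs for which the study had listed primers as candidates of CA1 or DG, 1 passed the test of hippocampus against neocortex. That was PPFIA2, a DG candidate. The study chose all 6 on these libraries, so their levels are no independent evidence of direction. By RT-qPCR the paper also reported a PPFIA2 circRNA enriched in DG and an intergenic circRNA enriched in CA1, measurements that were not used here. The intergenic CA1 candidate at chromosome 15, 55941729 to 55943892, had 0, 81.3 and 338 TPM in hippocampus and 0, 16.8 and 139 TPM in neocortex (log2 difference 2.11 ± 0.76, limma adjusted p = 0.192). The circRNA of TAX1BP1, an autophagy receptor and a DG candidate, was at 0 in 3 of 4 CA1 libraries and at 29.9 to 95.4 TPM in DG, and was above 0 in 12 of 20 neocortical libraries. The mean was 3.75 TPM in CA1 and 57.2 TPM in DG. The circRNAs of ERC1 and MAP3K7, a kinase of inflammatory signalling, among the CA1 candidates, and of IPO9, a nuclear import receptor, among the DG candidates had log2 differences of 1.79, 0.73 and 1.62 from neocortex (adjusted p of 0.315, 0.714 and 0.352). IPO9 had means of 18.1 TPM in CA1 and 72.4 TPM in DG. The primers of IPO9 and TAX1BP1, the candidates whose mean level differed most between CA1 and DG on the log2 scale, and of the intergenic one, which has no host to name it by, are printed to identify the junctions measured.
Intergenic chromosome 15 forward: gtccttgcttccgcttcac
Intergenic chromosome 15 reverse: ccacagtcccatagtcttcca
IPO9 forward: ccatcatcactgacagtgtga
IPO9 reverse: gggttggctgtccatacttta
TAX1BP1 forward: agacagagaaggatgagaagga
TAX1BP1 reverse: tgtagcatcactgaacctcttc

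CA1 and DG could not be told apart circRNA by circRNA. By limma, 0 of the 6039 differed between CA1 and DG at an adjusted p under 0.05 (smallest 0.291), and 421 had an unadjusted p under 0.05. The hippocampus minus neocortex difference did not pass for any circRNA when compared between ages (381 at an unadjusted p under 0.05) or between the sexes (402). limma was the only tool run for these contrasts, which rested on 4 libraries against 4 or on differences between pools.

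By gene group, the circRNAs of neocortical layer markers came first. Of 12 tested, from 9 host genes, 0 were higher and 1, that of CUX2, was lower, with a median log2 difference of -1.12 beside -0.30 over all circRNAs tested, of which 0.199% were higher and 0.596% lower. The CUX2 circRNA did not pass at equal depth (adjusted p = 0.0509). The circRNAs of the 20 layer markers in the table summed to 53.4, 164 and 299 TPM in hippocampus and 186, 481 and 1039 TPM in neocortex. CUX2 gave the largest part, with a summed mean of 62.9 TPM in hippocampus and 253 TPM in neocortex. RORB, FOXP2, TOX and 7 others of the 20 were at 0 in all 8 hippocampal libraries, and these were above 0 in 1 to 11 of the 20 neocortical ones. Their neocortical means were only 0.37 TPM (CBLN2) to 7.33 TPM (RORB). In hippocampus 2 reads stood for 0.58 TPM (CA1_20M) to 12.03 TPM (DG_10F), so levels this low could go unlisted there. BCL11B averaged 18.4 TPM in hippocampus and 4.96 TPM in neocortex. Markers of dentate granule cells had 4 circRNAs tested and those of CA1 pyramidal cells 8, and none passed. At an unadjusted limma p under 0.05, 0 of the CA1 list were higher and 2 lower, those of KCNH7 and GALNTL6. The median log2 difference of the list was 0.02. All circRNAs of KCNH7 together were above 0 in 0 of 8 hippocampal and 16 of 20 neocortical libraries, and those of GALNTL6 in 1 of 8 and 14 of 20. PROX1, DSP, CALB1 and C1QL2, defining markers of granule cells, had no circRNA in the table, so the hippocampal labels could not be checked through them. The 7 granule cell markers in the table summed to 29.3, 152 and 357 TPM in hippocampus and 39.1, 77.0 and 238 TPM in neocortex. MCTP1 gave the largest part, with means of 84.6 and 52.0 TPM. DOCK10, SEMA5A and MAML2 also had higher hippocampal means, while SLC4A4, RFX3 and GLIS3 had lower ones.

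Presynaptic active zone genes had 61 circRNAs tested, of which 1 was higher (PPFIA2) and 1 was lower (RIMS2), beside 0.795% of all circRNAs that passed in either direction, with a median log2 difference of -0.09. Of the pair, only PPFIA2 also passed at equal depth. All their circRNAs together summed to 2330, 4182 and 6106 TPM in hippocampus and 1097, 2294 and 3600 TPM in neocortex. Genes known for conserved brain circRNAs had 55 tested, with 0 higher and 3 lower, those of ATRNL1, RIMS2 and MAN1A2 (0.596% of all circRNAs tested were lower), and a median of -0.39. None of the 3 passed at equal depth (adjusted p of 0.0685, 0.22 and 0.0774). Voltage-gated calcium channel genes had 19 tested, with the CACNB2 circRNA higher, 0 lower and a median of -0.73. Of the 51 circRNAs tested of kinases and phosphatases of long-term potentiation, and of the 61 of postsynaptic scaffolds, none passed. The smallest adjusted p values there were 0.0702 for PRKCB, a protein kinase C, and 0.149 for DLGAP3, a scaffold of the postsynaptic density, both with negative differences. At equal depth the DLGAP3 circRNA passed (log2 difference -1.54, adjusted p = 0.0327).

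Markers of other cell types are given for their summed levels, as lowest, median and highest or as medians. The circRNAs of oligodendrocyte precursor markers summed to 211, 462 and 722 TPM in hippocampus and 8.85, 136 and 662 TPM in neocortex, to which the gene ID named either FIP1L1 or PDGFRA gave means of 402 and 167 TPM. Those of microglial markers had medians of 423 and 174 TPM, carried by SFMBT2 (means of 307 and 175 TPM) and PLXDC2 (87.2 and 28.8 TPM), while CX3CR1, P2RY12, CSF1R and PTPRC had no circRNA in the table. Those of oligodendrocyte markers had medians of 204 and 126 TPM. Astrocyte markers had 165 and 161 TPM, and none of the circRNAs of these last 3 lists passed the test. Among defining markers, GFAP of astrocytes was at 0 in all hippocampal libraries and above 0 in 2 of 20 neocortical ones, while AQP4 was above 0 in 1 of 8 and in 0 of 20. For oligodendrocytes, MOBP was above 0 in 0 of 8 and 2 of 20, MBP in 2 of 8 and 1 of 20, and MOG in 4 of 8 and 2 of 20, with means of 15.8 and 1.09 TPM. The endothelial marker FLT1 was above 0 in 0 of 8 and 3 of 20, and TTR of the choroid plexus had no circRNA in the table. The part of cell composition in the differences above was not tested.

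Whole libraries also differed. At equal depth a hippocampal library held 3495 ± 503 circRNAs with at least 2 reads (SD, n = 8) and a neocortical one 4035 ± 481 (SD, n = 20), and the hippocampal mean was lower in 4 of 4 pools (exact two-sided permutation test within pools, p = 0.013, adjusted over 6 measures p = 0.0261). The ranges, 2876 to 4288 and 3089 to 4702, overlapped. Without the 10F or the 20F pool the permutation p was 0.0645 or 0.0534. Intergenic circRNAs took 14.9% ± 0.963 of back-splice reads in hippocampus and 16.6% ± 0.843 in neocortex, lower in 4 of 4 pools (exact permutation p = 5.66e-05, adjusted p = 0.000339). Exonic circRNAs took 77.4% and 76.4% (adjusted p = 0.00503), and intronic ones 7.64% and 7.06% (adjusted p = 0.119). The summed TPM of all circRNAs was 222611 ± 60570 and 222135 ± 48366 TPM (adjusted p = 0.983), and the 10 most abundant circRNAs of a library took 10.4% and 9.58% of reads (adjusted p = 0.191).

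**Figure D5:**
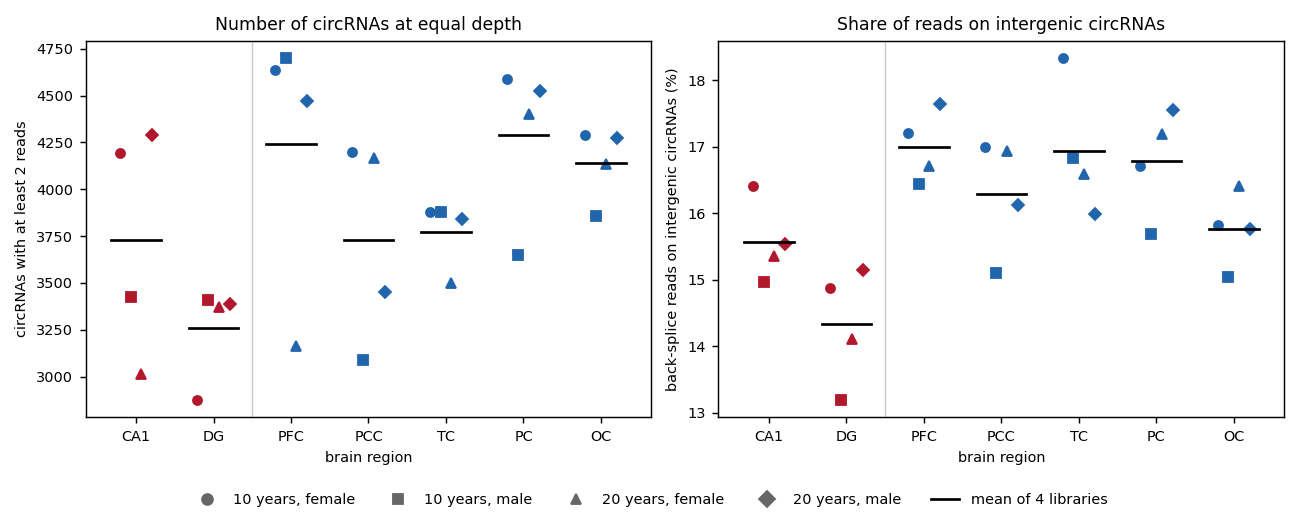
For each of the 28 libraries, the left panel gives the number of circRNAs with at least 2 reads after thinning to 37329 reads, and the right panel the percent of back-splice reads on intergenic circRNAs, by region on the x axis, with the mean of 4 libraries as a bar. Hippocampal libraries (red) run from 2876 to 4288 circRNAs and from 13.2% to 16.4%, and neocortical libraries (blue) from 3089 to 4702 and from 15.0% to 18.3%.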

How the data were processed

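RNase R-treated RNA of 28 libraries was used. The authors trimmed reads with Cutadapt, aligned them with BWA, called circRNAs with CIRI2 at 2 or more junction reads and deposited one table of TPM values for 52828 circRNAs. The genome build is not given in the sources used here, and coordinates and gene identifiers were taken as deposited. Within each library the deposited TPM values were whole multiples of one step (within 0.1 read), from which back-splice reads were recovered, and intervals from reads cover counting error only. Labels and methods say that libraries of a pool share animals, so pools pair the libraries (median correlation of deviations from region means 0.0352 over 84 same-pool pairs and -0.0118 over 252 others). limma 3.58.1 in R 4.3.3 tested log2(TPM + 2.215), where 2.215 TPM is the median of the libraries' smallest values, for circRNAs above 0 in at least 8 libraries, with a mean-variance trend and Benjamini-Hochberg adjustment at 0.05. Library measures were compared by exact permutation over 194481 choices within pools. Named circRNAs were the 12 with the smallest p in each direction with the same direction in 4 pools, the CA1 and DG primer candidates and, from each of 22 gene lists, the 2 with the smallest p (up to 4 were planned), and for host genes with 2 or more circRNAs tested 5 a direction; other circRNAs that passed were named after their values were seen. Members and lists were chosen with earlier results of these data known. Thinning used 10 draws, and thinned libraries were tested with the value of 2 reads in place of 2.215 TPM. The fit was tested on simulated data. Scripts ran in Python 3.11.15 (pandas 2.3.3, SciPy 1.17.1) and plots were drawn with Matplotlib 3.10.9.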

Additional observations from a re-analysis of the deposited data

Results flagged for a closer look

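Single libraries stood apart from the rest of their group by Dixon's test in 16 of 91 groups of values examined. The chance rate of about 1 in 20 holds for separate groups of normally distributed values. Here the CA1 and DG groups lie within the hippocampus group, and a group with all other libraries at 0 is always flagged. The 16 of 91 can therefore not be set against that rate. In CA1_20M the circRNA of ENSMMUG00000018538 (SHISA6) was at 0 TPM, against 214 to 273 TPM in the rest of CA1 and 57.5 to 273 TPM in the rest of the hippocampus. The COL11A1 circRNA was at 1624 TPM in CA1_20M, against 561 to 618 TPM in the other CA1 libraries, and at 3510 TPM in DG_20M, against 891 to 975 TPM in the other DG libraries. The CACNB2 circRNA was at 0 TPM in DG_20F, against 31.8 to 214 TPM in the rest of the hippocampus, and the ERC1 candidate was at 0 TPM in DG_10M, against 16.4 to 90.2 TPM.

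Other libraries stood apart because all the rest of the group were at 0. These were the WFDC1 circRNA at 29.3 TPM in CA1_20F and the FGF12 circRNA at 135 TPM in CA1_10M, each against both the rest of CA1 and the rest of the hippocampus, the ARHGAP6 circRNA at 24.6 TPM in DG_20F, likewise against the rest of DG and of the hippocampus, the BMPER circRNA at 12.03 TPM in DG_10F against the rest of DG, and the TAX1BP1 circRNA at 15.0 TPM in CA1_20M against the rest of CA1. At equal depth DG_10F held 2876 circRNAs, against 3371 to 3407 in the other DG libraries. The summed TPM of DG_20F was 107695, against 239949 to 259906 in the rest of DG. The part of depth or of the share of clean reads in these values was not tested.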

How the results depend on the processing

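Of 2829 values of the 48 called circRNAs under the alternatives, none changed direction, 1959 kept an adjusted p under 0.05 and 870 lost it. The 48 were chosen for their differences in these same libraries, and 28 of the alternatives each left out only a single library. A change of direction was therefore unlikely from the start, and its absence is no separate evidence. Except at equal depth, no share of direction changes over all circRNAs tested is given beside it. The pool as a replicate block gave 12 higher and 36 lower circRNAs, 47 of the 48 the same, with 14 and 48 host genes and no CA1 against DG, age or sex difference, so this block moved no count by over 1.5 times. Higher circRNAs numbered 6 from 4 pool differences, 5 by voom on recovered reads with library totals, 6 with a pseudocount 10 times lower, 20 with one 4 times higher, 2 without DG, 6 without the 5 libraries of many clean reads and 4 with CA1_20M and DG_20M as the only hippocampal libraries (added after seeing the data). Lower circRNAs numbered 0 from 4 pool differences, 6 by Student's test on TPM, 4 and 6 by voom with library totals and size factors, 20 with the study's filter, 69 and 11 with circRNAs above 0 in at least 14 libraries and in at least 1, 3 without DG, 17 without PC, 13 without the 5 libraries and, added after seeing the data, 16.5 at equal depth, 17 with log2 reads as a covariate and 3 with CA1_20M and DG_20M alone. Higher host genes numbered 9 with the lower pseudocount, 21 with libraries at the same total and 24 at equal depth, and lower ones 32.5 at equal depth. The cause of these shifts was not tested.

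Leaving out each pool or library gave 7 to 15 higher and 11 to 46 lower circRNAs, 6 to 11 higher and 20 to 52 lower host genes (pools only), and a difference of -653 to -451 circRNAs at equal depth, -15366 to 38550 summed TPM and 0.42 to 0.72 percentage points of intronic reads, the last with an exact permutation p of 0.0296 without the 20M pool, 0.0487 without PCC_10M and 0.0299 without CA1_20M. The log2 difference of MAP3K7 was -0.50 without CA1, that of TAX1BP1 -1.31 without DG and that of GRIK4 -0.64 with CA1_20M and DG_20M alone. The median log2 difference of all circRNAs ran from -0.74 with the lower pseudocount to 0.23 by voom. Count models on recovered reads were not run, because the table lists no single reads, and TMM was not used. As fewer than 2 reads are listed at 0, low levels cannot be seen in the shallow hippocampal libraries.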

Other observations

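Gene groups not described above gave few or no circRNAs past the test of hippocampus against neocortex. Ionotropic glutamate receptor genes had 11 circRNAs tested, none past it, with a median log2 difference of 0.39 beside -0.30 over all circRNAs tested. The smallest p in this group was that of a circRNA from an intron of GRIK4, a kainate receptor subunit, at means of 12.3 TPM in hippocampus and 2.56 TPM in neocortex (limma adjusted p = 0.352). Metabotropic glutamate and GABA receptor genes had 15 tested, none past it, and a median of -0.32, with GABBR2, a subunit of the GABA-B receptor, at 1.14 and 11.7 TPM (limma adjusted p = 0.311). Potassium channel genes had 18 tested and a median of -0.59, and the circRNA of KCNH7, a channel of the ether-a-go-go family, was at 0 in all 8 hippocampal libraries and at a mean of 14.4 TPM in neocortex (limma adjusted p = 0.166).

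Synaptic adhesion genes had 30 tested with a median of -0.44, axon guidance genes 19 with a median of -0.05, genes of the hippocampal formation and its patterning 10 with a median of -0.65, and inhibitory neuron markers 9 with a median of -0.14. In the axon guidance list the circRNA of ROBO1, a receptor of Slit proteins, had means of 10.6 TPM in hippocampus and 1.03 TPM in neocortex (limma adjusted p = 0.267). Among inhibitory neuron markers, a circRNA of GRIP1, a scaffold of AMPA receptors, had means of 27.3 and 8.41 TPM (limma adjusted p = 0.358). Endothelial, choroid plexus and cerebellar markers had 1, 1 and 2 circRNAs tested, and none passed.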
